A study of Mus musculus with 2 samples.

Results

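CTCF sites that lie close together were described in embryonic mouse lung: peak summits that had another summit between 50 and 1000 bp away on the same chromosome. Of the 54943 summits in the optimal list on chromosomes 1 to 19 and X, 5754 had such a partner, or 10.5% (95% Wilson interval 10.2 to 10.7). They formed 2554 simple pairs, which are chains of exactly 2 summits, and 206 longer chains with 646 summits. These sites were chosen by the deposited summit positions of the optimal list, so the number of pairs, their spacing and their signal are given as descriptions with no test. The sequence and the gene annotation did not enter the choice. The optimal list was itself made from the replicate and pooled lists, so the replicate values are not independent of the choice and are also given as descriptions.

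The chromatin came from lungs of B6NCrl mouse embryos at day 14.5, of both sexes, which had been pulverised and pooled over several dissections. Chromatin immunoprecipitation with a CTCF antibody and sequencing (ChIP-seq) gave 2 samples in 1 group, biological replicates 1 and 2, with no treatment and no second genotype. One biosample and donor entry covers both samples, and differences between them may reflect technique alone. Lung is a mixture of cell types, and a peak list cannot show whether both partners of a pair are bound in the same cells or on the same chromosome copy. All positions are on mm10. Peak lists hold no read counts, so the depth of the samples is unknown, and the intervals given here cover counting error only.

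CTCF, a DNA-binding protein with zinc fingers, occupies insulators and, with cohesin, the anchors of chromatin loops. Its binding motif is not symmetric, so each bound site has a direction. Loops form mostly between sites far apart whose motifs point toward each other. Sites can also stand side by side a short distance apart, and the textbook case is the imprinting control region upstream of H19, which separates the Igf2 promoters from their enhancers on the maternal chromosome.

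The motifs under the strongest pairs show the 3 possible arrangements. A 20-base matrix learned from sites without a close partner, with the consensus TGGCCACCAGGGGGCACTAG, was used to find and orient the motifs. Each line gives 30 bases read 5′ to 3′ along the motif, with the 20 matched bases in capitals, for the strongest pairs of each arrangement, ranked by their weaker partner. In divergent pairs the left motif is on the reverse strand and the right motif on the forward strand, as at Rhof and Trp53i11. Convergent pairs, as at 4930578M01Rik and Ankle1, have the opposite order. Tandem pairs, as at Gm28694 and Gm14267, have both motifs on the same strand, which is the reverse strand in both of these pairs.

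Rhof left, chr5:123132970-123132999, reverse: ggcatTCGCCGGCAGGGGGCGCCATggctc
Rhof right, chr5:123133571-123133600, forward: cggctCCACCACCAGAGGACAGCAGcgacc
Trp53i11 left, chr2:93199038-93199067, reverse: agcaaTGGCCACAAGGTGGCAGCACagaca
Trp53i11 right, chr2:93199602-93199631, forward: ggcacCTGCCACTTGGGGGCAGCAGactgg
4930578M01Rik left, chr15:98993191-98993220, forward: gcctgTAACCAGCAGGCGGCGCTGTccccg
4930578M01Rik right, chr15:98994087-98994116, reverse: cagagTGTCCAGCAGATGGCGCCACagctg
Ankle1 left, chr8:71405999-71406028, forward: gaattTGAACTGCAGAGGGCGGTGActcct
Ankle1 right, chr8:71406826-71406855, reverse: agtcaCCGTCAGCAGGGGGCGTCCTtaacc
Gm28694 left, chr1:157076434-157076463, reverse: gatatCGCCCACGAGGTGGCGCAGGcccct
Gm28694 right, chr1:157077258-157077287, reverse: cactcTGGCCGCCAGGTGGCGCTGCagcac
Gm14267 left, chr2:166564078-166564107, reverse: aactaTGACCACCAGGTGGCGCTGTgggca
Gm14267 right, chr2:166564670-166564699, reverse: cagccTGTCCAGCAGAGGGCACCAGggacc

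Left and right mean the lower and the higher coordinate on the chromosome. The genes are those with the transcription start site (TSS) nearest to the middle of the pair. Capital letters that differ between the lines of a pair show how much the motif varied. In the Rhof pair 11 of the 20 bases were identical between the partners, and in the Gm28694 pair 14.

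The pairs with the strongest weaker partner had almost equal signals at both summits. Ranking by the weaker partner itself favours such pairs, because no summit of a simple pair had a signal above 514. At Gm28694, a long non-coding RNA gene 22826 bp away, the left and right summits had signals of 384 and 387 in the optimal list, 204 and 214 in replicate 1, and 181 and 172 in replicate 2. Signal is the peak caller's own value for a peak, and it was not scaled between lists. The partners lay 823 bp apart and their order differed between the replicates. The pair upstream of Rhof had 364.5 and 393 at a spacing of 604 bp, with 194 and 220 in replicate 1 and 169.5 and 168 in replicate 2. Both summits lay in the promoter class, which is 1 kb either side of a TSS. Inside Trp53i11 the signals were 355 and 349 at 564 bp, with 187 and 198 in replicate 1 and 170 and 154 in replicate 2.

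The other members of the strongest 8 were nearest Mdfi, Gm14267, Fam136a, Adgre1 and 4930578M01Rik. Mdfi encodes an inhibitor of myogenic factors, and its pair, 41586 bp from the TSS, had 368 and 386. Only the right summit of that pair passed the motif threshold. The score of the left one, 8.74 bits, fell just under the threshold of 8.77. Gm14267 had 327 and 413, the widest gap of the 8, a 1.26-fold difference. In all 8 pairs the partners differed by 1.01- to 1.26-fold, and 7 of the 8 carried a motif at both summits.

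Spacing ran from 199 to 1000 bp, with a median of 617 bp and quartiles of 420 and 807 bp over the 2554 simple pairs. No neighbouring summits lay closer than 199 bp in the optimal list, and 199 bp was also the smallest gap in the conservative, pooled and single replicate lists. The lower limit of 50 bp therefore left out no summit. Over all neighbouring gaps of the optimal list, 400 were shorter than 210 bp and 163 were at 210 bp or more and under 300 bp. The next 100 bp held 112, and those from 400 bp to under 500 bp held 348. From 500 bp the count per 100 bp fell slowly, from 411 at 500 bp to 374 at 900 bp and 259 at 1900 bp (lower edge of each step). At the upper limit, the 34 gaps in the last 10 bp had a median signal of 136 at the stronger and 36.2 at the weaker summit. The 46 gaps in the first 10 bp beyond it had 178 and 39.3.

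**Figure D1:**
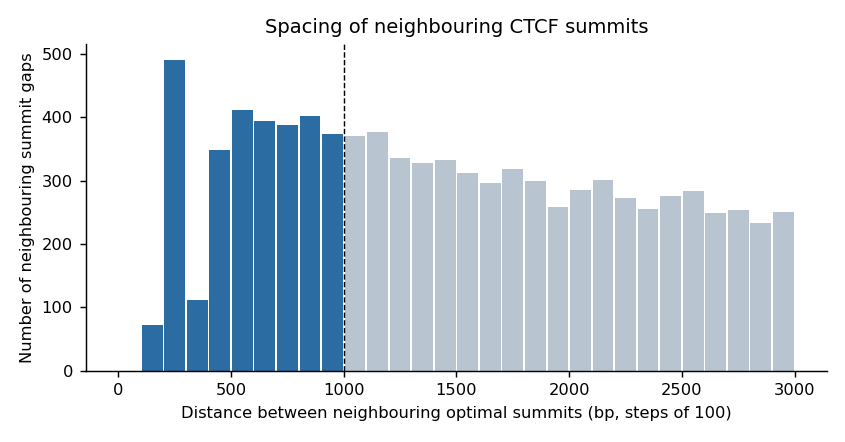
Number of gaps between neighbouring optimal summits (vertical axis) in steps of 100 bp (horizontal axis); dark bars lie within the 1000 bp limit, marked by the dashed line. The tallest bar, from 200 to 300 bp, is followed by a dip to 112 gaps in the next step.

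The closest pairs differed from the rest in several measures. Among the 478 simple pairs under 300 bp apart, the left partner was the stronger in 460, or 96.2% (95% Wilson interval 94.1 to 97.6). Among the 2076 pairs at 300 bp or more it was the stronger in 1035, or 49.9% (47.7 to 52.0). Left and right follow the chromosome coordinates and not a gene or a motif. The same lean appeared in each complete replicate list, in which the left of neighbouring summits under 300 bp apart was stronger in 83.9% of 4729 gaps (replicate 1) and 83.4% of 3101 gaps (replicate 2). At 300 to 1000 bp it was 49.8% in both. This split at 300 bp was chosen after the values were seen, and the cause of the lean was not tested. The deposited intervals overlapped in 94.97% of pairs under 210 bp apart. Whether such summits are 2 separate sites or 1 peak that the caller divided cannot be told apart from these lists.

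The weaker partners of these closest pairs were also weak and hard to find in the replicates. Their median signal was 8.45, against 36.8 for weaker partners at 300 bp or more. A replicate summit lay within 50 bp of them in both replicates in 22.2% of pairs (95% Wilson interval 18.7 to 26.1), against 87.7% (86.2 to 89.1) at 300 bp or more. For the stronger partners these shares were 64.9% and 97.8%. Of the close pairs 55.2% had no motif at either summit (50.7 to 59.6), against 22.1% (20.3 to 23.9) of the wider ones. The deposited intervals of the partners overlapped in 444 of the 2554 pairs and in none at 300 bp or more, and 8 close pairs shared 1 interval with 2 summits. Both partners were in the conservative list in 37.4% of close pairs and 75.7% of wider ones. Both partners lay in a promoter in 28.2% of close pairs and 23.9% of wider ones. The median GC content differed little, between 50.8% and 53.3% over all spacing classes. It was 51.3% for pairs under 210 bp apart and 51.1% at 800 to 1000 bp.

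**Figure D2:**
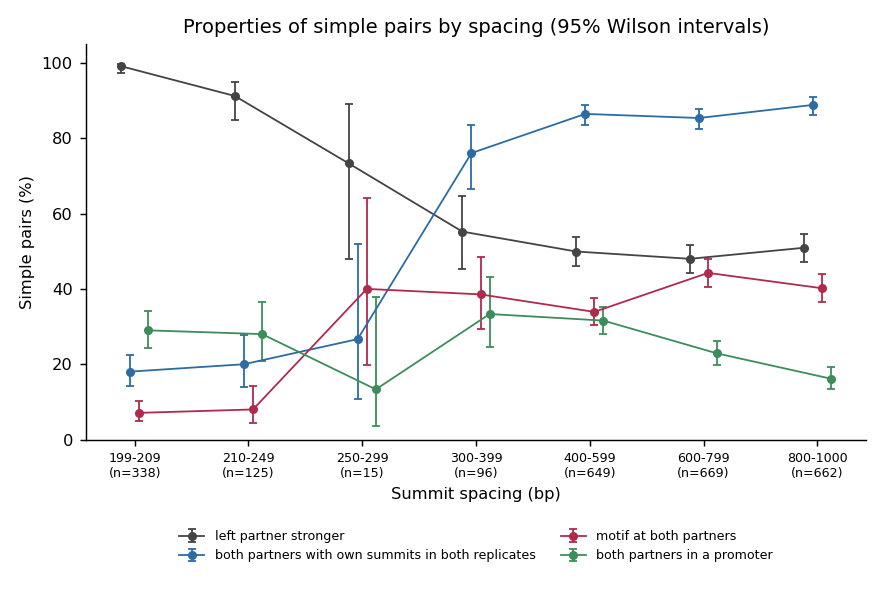
Share of simple pairs (vertical axis, percent) by summit spacing (horizontal axis, number of pairs in brackets) in which the left partner was stronger, both partners had summits of their own in both replicates, both had a motif, or both lay in a promoter; bars are 95% Wilson intervals. The share with the left partner stronger drops from 99.1% under 210 bp to 55.2% from 300 to 400 bp, while the share with own summits in both replicates rises from 18.0% to 76.0%.

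A motif at both summits was found in 40 of the 478 close pairs. At the smallest spacing, a pair inside Abca4, with Gm43157 the gene of the nearest TSS, had signals of 225 and 114. The replicates gave 128 and 76.3, and 97.2 and 32.3, so the left partner led in all 3 lists. A pair inside Tnnt2, which encodes cardiac troponin T, had 169 and 29.2 at the same spacing. Replicate 1 gave 88.3 and 25.3, replicate 2 gave 79.7 for the left summit, and no replicate 2 summit lay within 50 bp of the right one. The pairs near Gm5777 (172 and 31.3) and Gm28527 (47.7 and 15.7) had this spacing too. At Gm28527 as well, no replicate 2 summit lay within 50 bp of the right summit. The next spacing was 200 bp, near Mafk, inside Tmem184a and in the 3′ UTR class (51.3 and 35.5). There no replicate 1 summit lay within 50 bp of the right summit. In these 5 pairs the motif starts were 206 to 280 bp apart, 4 of them in tandem and that in Tnnt2 convergent.

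Within a simple pair the stronger partner had a median signal of 103 and the weaker a median of 31.4. The quartiles were 43.96 and 212 for the stronger and 18.9 and 63.8 for the weaker. Among all 54943 sites these medians fell at percentile 64.3 and percentile 26.1. The median difference was 2.42-fold, or 1.28 on the log2 scale (quartiles 0.59 and 2.11), and 1017 pairs, or 39.8%, lay within 2-fold. A partner in the strongest 10% of all sites was present in 419 pairs, and both partners were in that class in 25. In 751 pairs, or 29.4%, the weaker partner was in the weakest 10% of sites. Across the pairs the log2 signals of left and right partners had a Pearson correlation of 0.35 and a Spearman correlation of 0.33, with partners sharing library, list and neighbourhood. The ratio did not rise or fall steadily with spacing (Spearman correlation -0.02, n = 2554 pairs): the median was 2.99-fold under 300 bp, 1.70-fold from 300 to 400 bp and 2.71-fold from 800 to 900 bp. With pairs defined among the strongest 10000 sites alone the median log2 ratio was 0.33.

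**Figure D3:**
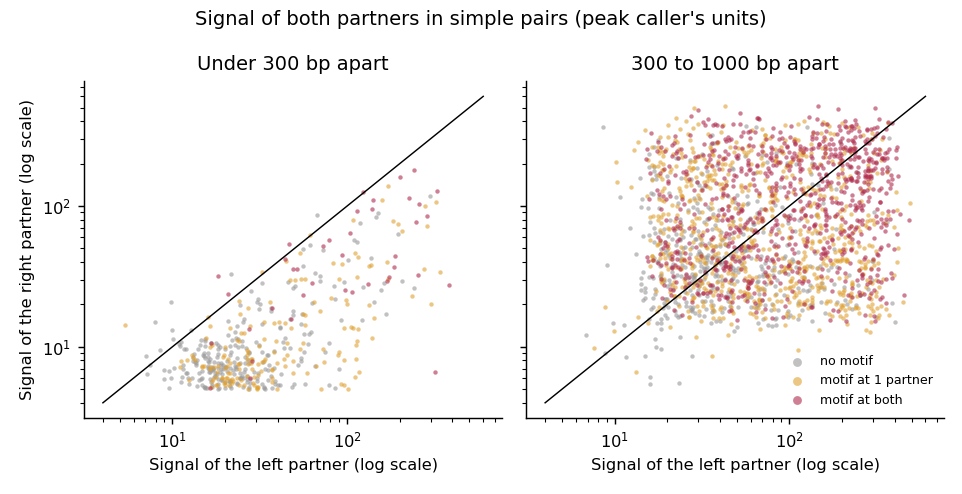
Signal of the left partner (horizontal axis, log scale) against that of the right partner (vertical axis, log scale) for simple pairs under 300 bp apart and at 300 to 1000 bp; each point is a pair, coloured by the number of partners with a motif, and the line marks equal signal. Below 300 bp 96.2% of points lie under the line, and at wider spacing they lie on both sides of it.

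The most unequal pairs with 2 motifs paired a strong site with one near the bottom of the list. An intronic pair in Fbp2, 224 bp apart, had 317 and 6.61 within 1 shared interval, a 47.9-fold difference. Replicate 1 gave 160.6 and 52.5, and replicate 2 gave 153 and 16.8. The difference was thus far smaller in each replicate than in the optimal list. The pair near Ptprs, a receptor tyrosine phosphatase gene, had 16.2 and 331, with 12.9 and 202 in replicate 1. In replicate 2 the right summit had 128 and no summit lay within 50 bp of the left one. The pairs near Gm47062 (309 and 15.2), AC142100.3 (453 and 23.3) and 1700054O19Rik (306 and 16.5) differed by 18.5- to 20.3-fold. At Gm47062 no replicate 1 summit lay within 50 bp of the right summit. The motif of the weaker partner scored 9.36 to 10.6 bits in 4 of these 5 pairs, close to the threshold of 8.77, and 17.2 bits at AC142100.3.

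The order of the partners was mostly the same in both replicates. A summit of its own within 50 bp was found for both partners in replicate 1 in 2156 pairs, in replicate 2 in 2068, and in both in 1883. In 1685 of these 1883 pairs, or 89.5% (95% Wilson interval 88.0 to 90.8), the same partner was the stronger in both replicates. Where the optimal list showed a difference of at most 1.5-fold, 332 of 516 pairs had the same order in both, or 64.3% (60.1 to 68.4). The optimal signal is that of the pooled list, which holds the same 2 samples, so a larger fold there and a shared order are not independent. The log2 ratio of left to right correlated between the replicates with a Pearson r of 0.91 and a Spearman correlation of 0.92 across pairs, which are not independent replicates. Between replicates the log2 ratio of a pair moved by 0.38 at the median.

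Sites with a partner carried the motif less often than other sites. On the even-numbered autosomes and X, which the matrix had not been learned from, 1254 of 2444 paired sites, or 51.3%, had a match within 50 bp of the summit. Of the other sites 15391 of 22971, or 67.0%, had one. The difference was -15.7 percentage points (95% Newcombe interval -17.8 to -13.6). It depended on signal: -20.9 points (-24.03 to -17.6) in the weakest 25% of all sites, -15.6 and -10.4 in the middle classes of equal size, and -1.57 (-4.91 to 1.28) in the strongest 25%. With pairs defined among the strongest 10000 sites alone, its sign was reversed, at 4.81 points higher in paired sites, with an interval of -1.78 to 8.21 that includes 0. On the same held-out chromosomes the difference was -11.95 points outside promoters and -11.4 points at promoters. It was -9.79 points when only spacings of at least 300 bp were counted, -10.3 points with the strongest pooled peaks and -26.7 points with a largest spacing of 500 bp. Neighbouring sites are not independent, so the intervals may be too narrow.

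Both partners had a motif in 859 of 2554 simple pairs, or 33.6% (95% Wilson interval 31.8 to 35.5). This share depended on the setting: it was 13.4% with the motif threshold passed by 0.1% of background windows, 20.7% with a largest spacing of 500 bp and 82.5% of the 114 pairs among the strongest 10000 sites. The stronger partner alone had one in 775 pairs, or 30.3%, the weaker alone in 7.75%, and neither in 722, or 28.3%. Where a single partner had a motif it was the stronger in 775 of 973 pairs, or 79.7% (77.0 to 82.1). The median signals of stronger and weaker partners were 188 and 57.6 in pairs with 2 motifs, and 43.8 and 19.8 in pairs with none. In pairs with 2 motifs the partner with the higher signal also had the higher matrix score in 533 of 859, or 62.0% (58.8 to 65.2). The difference in score and the log2 ratio of signal had a Pearson r of 0.38 and a Spearman correlation of 0.35 across these pairs.

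Most of the pairs with 2 motifs had both on the same strand, as did most neighbouring motif-bearing sites at the larger distances given below. Of the 859, 483 were in tandem, or 56.2% (95% Wilson interval 52.9 to 59.5), 194 were divergent, or 22.6% (19.9 to 25.5), and 182 were convergent, or 21.2% (18.6 to 24.05). The intervals of the divergent and convergent shares overlapped. With the stricter motif threshold, passed by 0.1% of background windows, they did not, at 26.2% divergent (21.9 to 31.1) and 16.6% convergent (13.05 to 20.9) of 343 pairs. With pairs defined among the strongest 10000 sites alone 11.7% of 94 were convergent. The tandem share was 26 of 41, or 63.4% (48.1 to 76.4), within 300 bp, 53.5% (47.4 to 59.5) from there to 600 bp and 56.96% (52.8 to 61.0) from 600 to 1000 bp. It was 60.5% (55.7 to 65.2) where the weaker partner was above the median signal of all sites and 52.3% (47.7 to 56.9) where it was not, a difference of 8.21 points (95% Newcombe interval 1.57 to 14.7). This was among several splits examined. By promoter, the tandem share was 54.1% (44.8 to 63.0) with a promoter summit and 56.6% (53.0 to 60.1) without. In tandem pairs the partner on the 5′ side of the shared direction was the stronger in 248 of 483, or 51.3% (46.9 to 55.8). The median weaker signal was 65.1 in tandem, 56.3 in divergent and 49.9 in convergent pairs.

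Orientation was also followed over larger distances with the same matrix. Among adjacent motif-bearing sites, with longer chains included, the tandem share was 56.1% of 962 under 1 kb and 57.4% of 1431 at 1 to 2 kb. It was 52.6% of 9673 at 5 to 20 kb and 51.02% of 14615 at 20 to 100 kb. The convergent share was 21.2% under 1 kb (18.7 to 23.9), 16.9% at 1 to 2 kb (15.1 to 18.9) and 25.2% at 20 to 100 kb (24.5 to 25.9). The divergent share was 22.7% under 1 kb (20.1 to 25.4), 27.4% at 5 to 20 kb (26.5 to 28.3) and 23.8% at 20 to 100 kb. Convergent sites made up 17.9% (16.6 to 19.2) at 2 to 5 kb and 20.01% (19.2 to 20.8) at 5 to 20 kb. The convergent share under 1 kb thus lay below that at 20 to 100 kb and above the shares at the 3 distances between, with intervals that overlapped those at 1 to 2 kb, 2 to 5 kb and 5 to 20 kb.

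**Figure D4:**
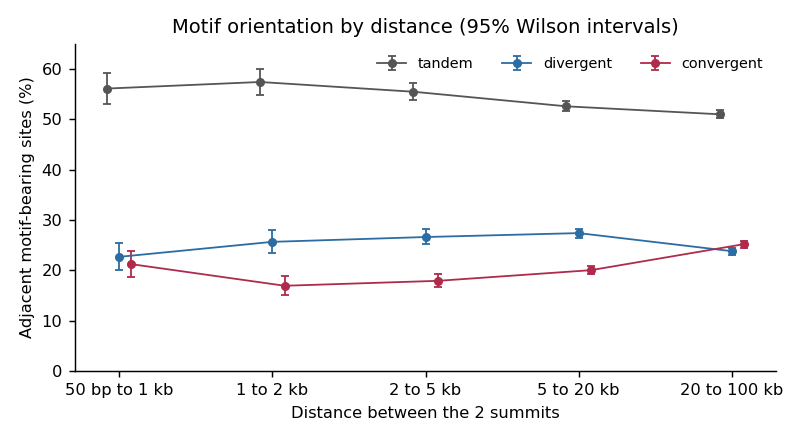
Share of tandem, divergent and convergent arrangements (vertical axis, percent) among adjacent motif-bearing sites by the distance between their summits (horizontal axis); bars are 95% Wilson intervals. The tandem share lies between 51.02% and 57.4% at every distance, and the convergent share is lowest at 1 to 2 kb, at 16.9%.

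Paired sites lay in promoters more often than other sites. A summit in the promoter class was found for 1670 of 5754 paired sites, or 29.0%, against 6399 of 49189 others, or 13.01%. The difference was 16.0 percentage points (95% Newcombe interval 14.8 to 17.2). It was present in each of 4 equal classes of signal, from 19.9 points in the weakest to 7.92 (5.75 to 10.3) in the strongest. With pairs defined among the strongest 10000 sites alone it was 2.75 points, with an interval of -1.32 to 7.91 that includes 0. Introns held 34.0% of paired and 44.1% of other sites, and intergenic sequence 28.5% and 35.97%. Coding exons held 3.25% and 2.43%. Soft-masked repeats held 15.4% of paired and 20.05% of other summits. The sequence around paired sites had a median GC content of 51.8% within 150 bp of the summit and 6 CpG, against 47.8% and 4 CpG at other sites. Promoters are GC-rich, and the part of base composition in these differences was not tested.

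**Figure D5:**
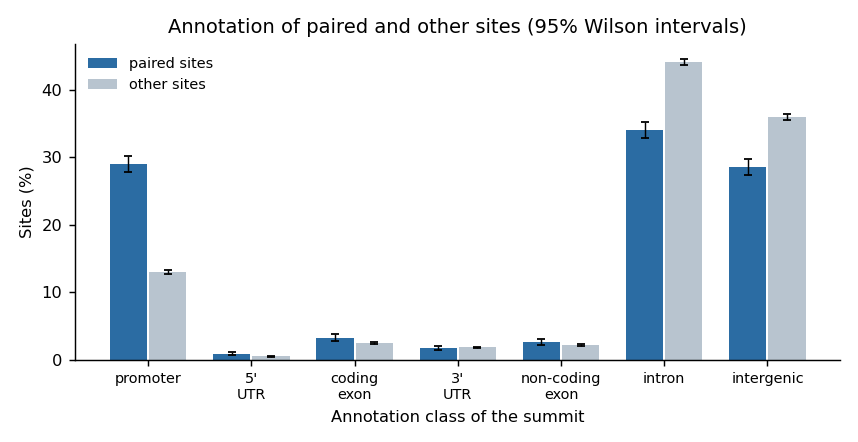
Share of paired sites (dark) and other sites (light) in each annotation class (vertical axis, percent; classes on the horizontal axis), with 95% Wilson intervals. Promoters hold 29.0% of paired against 13.01% of other sites, and introns and intergenic sequence hold smaller shares of paired sites.

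Both partners of a pair usually shared their class. They did in 2195 of 2554 pairs, or 85.9%, with 776 pairs wholly in introns, 709 intergenic and 632, or 24.7%, in promoters. Partners lay at most 1000 bp apart, and positions so close can share a class through nearness alone. No share was computed for other positions this close, so whether pairs exceed them was not tested. A protein-coding TSS lay between the summits in 277 pairs, or 10.8% (95% Wilson interval 9.70 to 12.1). In the 257 of these with a single such gene the partner upstream of the TSS was the stronger in 144, or 56.0% (49.9 to 62.0). Promoter pairs had fewer motifs: both partners had one in 72 of 632, or 11.4% (9.15 to 14.1), against 748 of 1770, or 42.3% (39.98 to 44.6), in pairs without a promoter summit. Neither had one in 50.5% and 20.1%. The median signals of promoter pairs were 72.4 and 26.8, against 117 and 34.6 for pairs without a promoter summit. The median spacing of promoter pairs was 559 bp against 639.5 bp. The class reaches only 1 kb either side of a TSS, so its definition already favours closer pairs.

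Some promoters were flanked by 2 strong sites, although both had a motif in only 19 of the 277 pairs around a protein-coding TSS. Upf3a, which encodes a factor of nonsense-mediated mRNA decay, had its TSS between summits 664 bp apart with signals of 306 and 356. Replicate 1 gave 167 and 207 and replicate 2 gave 143 and 150, so the right partner led in all 3 lists. Both carried a motif, in tandem. At Pts, which encodes an enzyme of tetrahydrobiopterin synthesis, the signals were 200 and 303 at 416 bp, with 104.7 and 165 in replicate 1 and 97.4 and 138 in replicate 2. At Pop7, a protein subunit of RNase P and RNase MRP, they were 199.5 and 390 at 860 bp, and the left partner alone had a motif, although it was the weaker in both replicates.

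The same arrangement stood at Tor2a, Pkn3, Otos, Unc45a and Sco2. At Tor2a, which encodes a torsin ATPase, the summits had 306 and 236, and the right one alone had a motif. Pkn3, a protein kinase gene, had 280 and 196 at 615 bp. Otos, which encodes an inner ear protein, had 280 and 186 at 997 bp, with divergent motifs that scored 22.96 and 22.7 bits. Unc45a, which encodes a myosin chaperone, had 242 and 173, and Sco2, needed to assemble cytochrome c oxidase, had 169 and 224, both pairs in tandem. Of these 8 promoters 5 had a motif at both summits, 4 in tandem and 1 divergent.

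The imprinting control region of H19 held a pair of nearly equal signals. Its summits lay 460 bp apart, with their middle 2395 bp upstream of the H19 TSS, and had signals of 145 and 140. Replicate 1 gave 77.1 and 74.5, and replicate 2 gave 70.01 and 66.9, so the left partner was ahead by a small margin in each list. Neither summit passed the matrix threshold of 8.77 bits, with best scores of 2.16 and 6.46. The sequences within 50 bp of the 2 summits were therefore compared with each other, a step added after the values were seen. The likest 20 bases, with 16 identical, lay on the reverse strand at both summits, and their middles were 5 and 0 bp from the summit. They are shown in capitals, on the strand where the left stretch has more G than C, because the matrix missed these sites.

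H19 left, chr7:142580303-142580322, reverse: cgatgCCGCGTGGTGGCAGTACAATactac
H19 right, chr7:142580758-142580777, reverse: tgctaCCGCGCGGTGGCAGCATACTcctat

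The coordinates give the 20 bases in capitals, without the 5 lower-case bases at each end. The window of H19 and Igf2, with 50 kb either side, held 15 sites. A second pair there, with Nctc1 the gene of the nearest TSS, had 164 and 21.0 at 452 bp, a 7.84-fold difference. A summit without a match to this matrix may hold a CTCF sequence of another form.

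Firre had the most pairs of the 26 loci examined. Firre is an X-linked long non-coding RNA gene with local repeats, known for CTCF binding on the inactive X chromosome. Its window held 31 sites, of which 16 formed 8 simple pairs. The spacing of these pairs ran from 459 to 821 bp, with a median of 555 bp. Their signals ran from 23.998 to 98.96, with a median of 46.9. The pair with the strongest weaker partner had 95.9 and 83.6 at 510 bp, with 50.9 and 37.5 in replicate 1 and 47.3 and 44.2 in replicate 2. A single one of the 16 partners passed the motif threshold, in an intergenic pair nearest Gm14620. As at H19, summits without a match to this matrix may hold a CTCF sequence of another form. The left partner was the stronger in 4 of the 8 pairs. How reads were placed among repeat copies is not given in the sources used here.

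Other imprinted loci held at most 2 simple pairs. Within the Kcnq1 window the pair with the strongest weaker partner lay in an intron of Trpm5, a cation channel gene, with 274 and 163 at 989 bp and motifs in tandem. Replicate 1 gave 156 and 91.9, and replicate 2 gave 122 and 71.5. In the window of Meg3 and Dlk1 a pair in non-coding exons, nearest Gm27596, had 107 and 159 at 856 bp with convergent motifs. At Nespas in the Gnas locus both summits were in promoters, with 58.6 and 29.0. At Grb10, which encodes an adaptor of growth factor receptors, the pair had 50.9 and 34.0 and no motif. The Rasgrf1, Peg10 and Igf2r windows held no pair.

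Among genes of lung development, Wnt7b, whose product is a WNT signal made by lung epithelium, had 2 pairs in its window. The first had 336 and 219 at 469 bp, at the promoter and in a non-coding exon class, with motifs in tandem. Replicate 1 gave 200.4 and 115, and replicate 2 gave 138 and 101.7. The second pair of the window had 27.5 and 438 at 938 bp, also in tandem. In the window of Tbx4 and Tbx2, transcription factors of the lung mesenchyme, a pair nearest 2610027K06Rik had 34.0 and 98.3 and no motif. The windows of Foxf1, Shh, Nkx2-1, Tgfb3, Sftpc and Gli1 held no pair, nor did those of the 4 Hox clusters, of Xist and Tsix, or of 4933407K13Rik at Dxz4. The window of Ctcf itself held 3 pairs, the strongest in an intron near Ripor1 with 184 and 107. In the protocadherin windows the strongest pair, 953 bp apart, had 76.8 and 177 with motifs in tandem. In all, 11 of the 26 loci held a simple pair and 15 held none, with the shared protocadherin pair counted for both of its windows.

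Longer chains were rare: 183 held 3 summits, 20 held 4, 1 held 5 and 2 held 6. A motif was present at 279 of their 646 summits, or 43.2% (95% Wilson interval 39.4 to 47.0), and a promoter at 254, or 39.3% (35.6 to 43.1). Of the 206 chains 46 had no motif, 34 had 3 or more, and in 12 of those 34 all motifs were on 1 strand. The strongest chain of 6 lay between genes on chromosome 12 near Gm25622, spanned 2910 bp and had signals of 236, 182, 141, 215, 131 and 138. Its summits 1, 3 and 4 carried motifs, all on the forward strand, and its summits 4 and 5 lay 200 bp apart. The other chain of 6 lay near 2700012I20Rik and inside Sin3a, which encodes a corepressor scaffold. Its signals were 93.2, 43.2, 51.8, 18.4, 6.42 and 13.1, and it had no motif. Summits 4 and 5 of this chain lay 199 bp apart. Whether summits this close are 2 separate sites or 1 divided peak cannot be told from these lists, so both chains may hold fewer sites.

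The chain of 5 lay at Tgfb1, which encodes a growth factor that restrains branching of the lung. Its signals were 131 and 10.8 in the promoter, 34.9 in an intron, 29.9 in a coding exon and 10.1 in a non-coding exon. Summits 1 and 3 had motifs on the forward strand. Summits 4 and 5 lay 208 bp apart, so they too may be 1 divided peak. The strongest chain of 4, in Pdzd7, an inner ear gene, had 265, 280, 269 and 95.8, with a motif at each summit in the order forward, reverse, reverse and forward. The chain near 6720469O03Rik had strong ends, 379 and 329, with 49.8 and 16.9 between them. Motifs stood at its ends only, both on the reverse strand.

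In a small number of pairs the sequences of the 2 partners were alike over much of their length. Between the 2 motifs of a pair a median of 12 of 20 bases were identical, and the 50 bases either side matched at a median of 26.0% when aligned along the motif without gaps. In 24 of 859 pairs, or 2.79%, these flanks were at least 50% identical, with values from 50% to 95%. Of the 24, 13 were in tandem, 7 convergent and 4 divergent. The likest pair lay near Slc5a9, a sugar transporter gene, with flanks 95% identical and 18 of 20 motif bases shared. Its signals were 179 and 228 at 680 bp, with 104 and 121 in replicate 1 and 76.2 and 108 in replicate 2. The second likest, near Gm20100, had 19.1 and 27.3 at 465 bp, with flanks 85% identical and all 20 motif bases shared. No replicate 2 summit lay within 50 bp of its right summit. The third, near Sfn, had 53.6 and 22.9, with flanks 78% identical. These pairs were singled out after their values were seen. The sequences of the Slc5a9 and Sfn pairs show how alike their partners are.

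Slc5a9 left, chr4:111886083-111886112, forward: gcataTGGCCACGAGATGGCGCCGAactca
Slc5a9 right, chr4:111886775-111886804, forward: gcataTGGCCACGAGATGGCACCAAactca
Sfn left, chr4:133612001-133612030, forward: agaggAGACCAGAAGAGGGCACTAGgttat
Sfn right, chr4:133612570-133612599, forward: agaggAGACCAGAAGAGGGCACTGGgttat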

How the data were processed

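The deposited files were 5 CTCF ChIP-seq narrowPeak lists on mm10: 1 per replicate, 1 pooled (300000 peaks each), and, after filtering by irreproducible discovery rate, an optimal and a conservative list. Per the deposited README, both replicates shared 1 control file. For aligner, peak caller and thresholds, settings were not given in the sources used here. Each peak's signal value was used as deposited, unscaled between lists. Every optimal summit was in the pooled list with the same signal (within 0.001).

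Summits were the interval start plus the deposited offset, and 10 optimal peaks outside chromosomes 1 to 19 and X were dropped. Sequence came from GRCm38 patch 6, whose chromosome lengths hold all peaks, and genes from GENCODE M21 (53843 genes). A summit in several classes took the first of these: promoter; UTR at the 5' end; exon that is coding; UTR at the 3' end; other exon; intron. The matrix was grown in 15 rounds from a 9-base seed on the strongest 3000 unpaired sites of odd-numbered autosomes. Each round left out the lowest 30%. The threshold let 1% of windows 5 kb away pass. The motif and pair scripts were tested on simulated data. Shares have 95% Wilson intervals and differences Newcombe intervals.

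Pairs named were the 8 with the strongest weaker partner, 5 most unequal and 5 closest with 2 motifs, 5 longest chains, 8 around a protein-coding TSS, the strongest per orientation, and those of 26 listed loci. The members and lists were chosen with earlier results of these data known. Scripts ran under Python 3.11.15 with pandas 2.3.3, numpy 2.4.6, numba 0.67.0, scipy 1.17.1 and, for plots, matplotlib 3.10.9.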

Additional observations from a re-analysis of the deposited data

How the results depend on the processing

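Of the values recomputed under other settings, 50 stayed inside the 95% interval of the value reported, 42 moved outside it and 1 reversed. These counts include a smallest spacing of 150 bp, under which no value could move, because no gap was shorter than 199 bp. All values of that setting count among the 50. With conservative peaks 9.94% of sites had a partner. With the strongest 10000 sites 2.37% did, the median spacing was 759 bp, the median log2 ratio 0.33, and 82.5% of pairs had 2 motifs, 64.9% of them tandem and 11.7% convergent. The promoter difference was 2.75 points there and the motif difference reversed to 4.81 points. No pair of these sites was under 300 bp apart, so the left partner could not be examined. With the strongest pooled peaks 9.32% had a partner, at 668 bp and a log2 ratio of 1.15 (1.145), with 2 motifs in 39.2%, a motif difference of -10.3 points and the left partner stronger in 93.7% of close pairs. To leave out each replicate in turn, the strongest 54943 peaks of the other replicate's own unfiltered list were used. The type of list thus changed together with the sample. The share with a partner was then 9.89% to 10.02%, spacing 656 to 663 bp and log2 ratio 1.13 to 1.17. Pairs with 2 motifs made up 35.6% to 35.7%, and the motif difference was -12.3 to -11.2 points. The left partner was stronger in 94.2% to 97.7% of close pairs.

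With a largest spacing of 500 bp, 3.70% had a partner, at a median of 228 bp. Both had a motif in 20.7%, 24.1% of these were convergent, the motif difference was -26.7 (-26.75) points, the promoter difference 19.4 points, and 87.1% kept their order in both replicates. With a smallest spacing of 300 bp, added after the data were seen, 8.67% had a partner, at 690 bp and a log2 ratio of 1.21 (1.205). Both had a motif in 39.0% (39.05%), and the motif difference was -9.79 points. A threshold passed by 0.1% of background windows gave 13.4% with 2 motifs, of which 26.2% (21.9 to 31.1) were divergent and 16.6% (13.05 to 20.9) convergent, with intervals that did not overlap, and a motif difference of -11.1 points. With protein-coding TSSs only the promoter difference was 14.7 points. The causes of these shifts were not tested. No paired analysis was possible because the samples form 1 group. The depth is unknown, so a partner missing from a replicate list may be only below its detection limit.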
